A study of Rattus norvegicus with 25 samples.

Results

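Egr1, Egr2, Egr3, Egr4, Nr4a1, Nr4a2, Nr4a3 and Npas4, the 8 genes described here, encode the Egr zinc finger factors, the Nr4a orphan nuclear receptors and the bHLH-PAS factor Npas4. They were taken by symbol from a table of raw counts per gene that lists 28909 names, and all 8 were among the 14142 genes with enough reads to be tested. The table covers the striatum of 25 female Sprague Dawley rats, on the side of a 6-hydroxydopamine (6-OHDA) lesion, a toxin lesion that removes dopamine input and serves to model Parkinson's disease. The labels name 3 arms: levodopa at 6 mg/kg QD alone (n = 5), that levodopa plus 7.5 mg/kg BID of trapidil (n = 10), and that levodopa plus 15 mg/kg BID of trapidil (n = 10). Levodopa alone here means levodopa without trapidil. Benserazide is also named for some labels, and which animals received it was not settled here. Trapidil is a vasodilator known as a phosphodiesterase inhibitor and an antagonist of platelet-derived growth factor. Dosing lasted 14 days and tissue was taken on day 15, and by the labels at 1 hour from dosing, before or after it not being said. Every animal was lesioned and received levodopa, so the comparisons below concern trapidil on top of levodopa. An unlesioned or levodopa-free arm was not analysed here, and neither was the extent of the lesion in each animal.

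These genes belong to the rapid response of neurons: they are transcribed within minutes of calcium entry or cyclic AMP and MAP kinase signalling, without new protein synthesis, and their transcripts are short-lived. Serum response factor with its Elk partners acts on CArG boxes, and CREB acts on cyclic AMP response elements (CRE), to start that transcription. Npas4 is known to depend on calcium entry more narrowly than the others. In the dopamine-depleted striatum, levodopa is known to activate MAP kinase signalling in spiny projection neurons through D1 dopamine receptors, and Egr and Nr4a genes are among those that respond.

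The promoters of the 4 members that tracked each other most closely across animals (below) are printed from 250 bases before to 50 after the start site, as RefSeq gives them on GRCr8. That is not the build on which the authors counted reads, so the coordinates serve only the sequences. The capitals mark CArG boxes and the CRE core sequence TGACG, which reads CGTCA on the other strand. Egr1 lies at chr18:26736828-26737127 (+), Egr2 at chr20:21054392-21054691 (-), Egr4 at chr4:119607768-119608067 (-) and Nr4a1 at chr7:134259888-134260187 (+).
Egr1: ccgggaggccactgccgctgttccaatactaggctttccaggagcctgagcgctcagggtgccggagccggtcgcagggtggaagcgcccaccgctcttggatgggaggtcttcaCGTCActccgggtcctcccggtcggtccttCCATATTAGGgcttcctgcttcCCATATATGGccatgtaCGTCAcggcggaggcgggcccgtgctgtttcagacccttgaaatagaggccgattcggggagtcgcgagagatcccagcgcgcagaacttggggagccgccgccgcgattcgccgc
Egr2: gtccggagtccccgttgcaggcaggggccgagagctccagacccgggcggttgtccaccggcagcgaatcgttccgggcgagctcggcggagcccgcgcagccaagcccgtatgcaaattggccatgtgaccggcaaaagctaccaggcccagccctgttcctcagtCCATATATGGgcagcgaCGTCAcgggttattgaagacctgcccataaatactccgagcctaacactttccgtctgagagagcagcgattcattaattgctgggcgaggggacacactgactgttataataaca
Egr4: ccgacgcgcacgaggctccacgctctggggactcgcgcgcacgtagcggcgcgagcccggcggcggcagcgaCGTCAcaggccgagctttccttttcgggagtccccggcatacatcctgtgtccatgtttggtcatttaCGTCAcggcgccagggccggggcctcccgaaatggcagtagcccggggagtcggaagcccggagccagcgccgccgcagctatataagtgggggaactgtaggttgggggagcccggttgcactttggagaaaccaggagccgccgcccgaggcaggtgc
Nr4a1: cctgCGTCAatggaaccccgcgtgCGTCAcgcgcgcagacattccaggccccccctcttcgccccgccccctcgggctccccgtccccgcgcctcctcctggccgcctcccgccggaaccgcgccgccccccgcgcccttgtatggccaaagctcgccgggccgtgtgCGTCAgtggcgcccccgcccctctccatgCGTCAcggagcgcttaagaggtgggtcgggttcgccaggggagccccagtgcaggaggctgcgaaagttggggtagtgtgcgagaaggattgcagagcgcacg

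Positions are those of a motif's first base, with the start site at 0. The Egr1 window held 2 CArG boxes, at -105 and -83, flanked by CRE cores at -135 and -66. The Egr2 window had 1 CArG box at -83 and 1 CRE core at -66, the same offsets as the nearer pair of Egr1. The Egr4 window had CRE cores at -178 and -110 and a TATAA at -28, with no CArG box. The Nr4a1 window had 4 CRE cores, at -246, -226, -82 and -53, and 1 GCGGGGGCG, a sequence that Egr proteins are known to bind, on the reverse strand at -73. Of the other members in that table, Nr4a2 had a CRE core at -8 and Npas4 had none, with a TATAA at -147. Egr3 and Nr4a3 are named only. Over all 33469 promoters of this table, searched on both strands, 21.2% held TGACG, 1.64% a CArG box, 26.2% TATAA and 2.73% GCGGGGGCG. The full palindrome TGACGTCA was in 0 of the 6 members' windows and in 1.83% of all, GCGTGGGCG in 0 and 0.544%, and the Nr4a monomer element AAAGGTCA in 0 and 1.43%. A match is a stretch of letters and was not tested as a binding site.

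Levels are given as CPM, which are the deposited counts corrected for library size with TMM factors. They serve to compare arms for 1 gene and not genes with each other, since transcript length was not corrected. Library totals ran from 10838513 to 20532290 counts. The raw counts of Egr1, Egr2, Egr3, Egr4 and Nr4a1 ran from 195 to 9922 per library, those of Nr4a3 and Npas4 from 53 to 1038, and those of Nr4a2 from 22 to 122. The counts of Nr4a2 were thus the lowest of the 8. All 12 markers of spiny projection neurons, the main striatal cell type, were detected, with a summed level of 9556 to 17054 CPM (levodopa alone), 13406 to 17035 CPM (7.5 mg/kg) and 12772 to 16555 CPM (15 mg/kg). Adjusted p-values are from edgeR's quasi-likelihood test over all 14142 genes with a threshold of 0.05, and errors of log2 fold changes are SE. Tissue was bulk, so fewer responding cells and less RNA per cell cannot be told apart.

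Of the 8 genes, 1 passed this threshold in 1 of 4 comparisons: Egr2 fell with trapidil when both doses were set together against levodopa alone. Egr1, Egr4 and Nr4a1 had lower means at both doses than with levodopa alone, further below at 7.5 than at 15 mg/kg. Nr4a3 went the other way, with its highest level at 15 mg/kg. Egr3, Nr4a2 and Npas4 had an unadjusted p above 0.05 in each comparison with levodopa alone. The plot of levels by library shows the spread of the 5 levodopa animals, whose SD in CPM was the largest of the 3 arms for every member except Nr4a3.

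**Figure D1:**
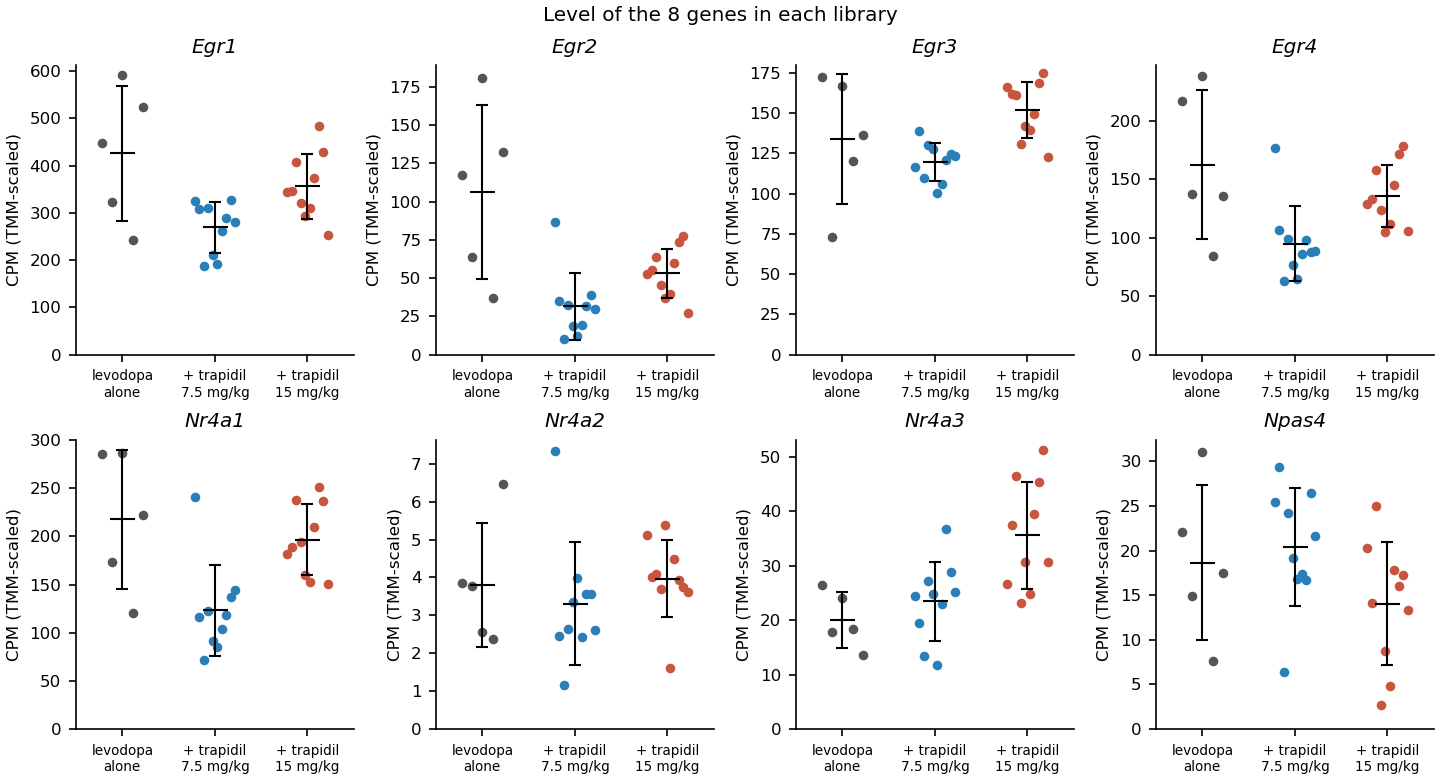
CPM (TMM-scaled, linear axis) of each of the 8 genes in each of 25 libraries, by arm; points are animals, the long bar is the arm mean and the whiskers are SD (n = 5, 10 and 10). All ranges overlap between arms; Egr2 lies between 36.8 and 180 CPM with levodopa alone, and 8 of 10 animals at 7.5 mg/kg lie below 36.8 CPM.

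Egr2, also called Krox20, is best known for hindbrain patterning and myelination and is an activity-dependent gene in neurons. With levodopa alone its 5 values were 118, 64.0, 180, 36.8 and 133 CPM. Its lowest, median and highest values were 10.4, 30.9 and 86.6 CPM at 7.5 mg/kg, and at 15 mg/kg 27.4, 53.9 and 77.5 CPM. Of the trapidil animals, 8 of 10 at the lower dose and 1 of 10 at the higher dose lay below the lowest levodopa animal, and none lay above the highest. The mean was 31.5 ± 21.6 CPM at 7.5 mg/kg, against 106 ± 56.9 CPM with levodopa alone (SD, n = 10 and 5) and the log2 fold change, -1.77 ± 0.34, missed the threshold (adjusted p = 0.0544). The 15 mg/kg arm averaged 53.2 ± 16.1 CPM (SD, n = 10), with a log2 fold change against levodopa alone of -0.999 ± 0.34 (adjusted p = 0.105). Set together, both doses gave -1.38 ± 0.30 against levodopa alone (adjusted p = 0.0301, 20 of 20 animals below the levodopa mean), a level 0.383 times that of levodopa alone. That call was lost without levodopa replicate 1 (log2 fold change -1.35, adjusted p = 0.055), replicate 3 (-1.11, adjusted p = 0.106) or replicate 5 (-1.29, adjusted p = 0.0512).

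Markers of oligodendrocytes, the myelinating cells of the brain, had lower levels in the same arms. Of 12 such markers, 12 had negative log2 fold changes with both doses against levodopa alone, and 1 passed. Over all genes 49.4% were negative there and 0.806% passed in either direction. At 15 mg/kg against levodopa alone 6 of the 12 passed, all lower, beside 1.31% of all genes in either direction. The summed level of the 12 was 10921 to 19950 CPM with levodopa alone, 7553 to 16695 CPM at 7.5 mg/kg and 6689 to 14081 CPM at 15 mg/kg. The summed level of 15 endothelial markers, of which 12 are in the table, was 511 to 924, 432 to 615 and 429 to 528 CPM in the same order, with Cldn5 at 0 in all 25 libraries and Slco1a4 lower at 15 mg/kg and over both doses. Markers of ependymal cells, which line the ventricles, had positive log2 fold changes for 11 of 11 genes tested in each comparison with levodopa alone (median 0.86 at 7.5 mg/kg, 1.17 at 15 mg/kg and 0.97 over both doses), and 0 passed. Their summed level was 12.3 to 122 CPM with levodopa alone, 13.6 to 163 CPM at 7.5 mg/kg and 47.7 to 133 CPM at 15 mg/kg. Astrocyte markers had negative values for 10 of 10 genes over both doses, with summed levels of 4510 to 8560, 4163 to 5850 and 3715 to 5398 CPM in that order. Markers of microglia and macrophages had negative values for 10 of 11 over both doses, with sums of 356 to 662, 323 to 571 and 323 to 424 CPM, and 0 genes of either list passed. The highest levodopa sum of the oligodendrocyte, endothelial, astrocyte and microglial lists was each time that of replicate 2. The other levodopa animals ran from 10921 to 14128, 511 to 547, 4510 to 5494 and 356 to 462 CPM for these lists. Cortical neuron markers had negative values for 8 of 9 over both doses, of which 1 passed. The part of the oligodendrocyte, endothelial, astrocyte and microglial lists in the Egr2 result was not tested. With marker scores in the design, the log2 fold change of Egr2 for both doses was -1.33 with the cortical score (adjusted p = 0.193) and -0.92 with 4 region scores, those of cortical, pallidal and hypothalamic, choroid plexus and ependymal markers (adjusted p = 0.368). It was -1.34 with 2 surrogate variables (adjusted p = 0.0945) and -1.19 with the first principal component (adjusted p = 0.167).

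Egr1, also called Zif268, is a widely used marker of neuronal activation and plasticity. Its 5 levodopa values were 449, 324, 592, 242 and 525 CPM. The lowest, median and highest were 187, 285 and 326 CPM at 7.5 mg/kg, and 253, 345 and 484 CPM at 15 mg/kg. In the 7.5 mg/kg arm 10 of 10 animals were below the levodopa mean and 3 below every levodopa animal, while at 15 mg/kg all 10 lay inside the levodopa range. Egr1 averaged 269 ± 54.2 CPM at 7.5 mg/kg, against 426 ± 143 CPM with levodopa alone (SD, n = 10 and 5), with the log2 fold change at -0.66 ± 0.17 (adjusted p = 0.136). The 15 mg/kg arm averaged 356 ± 68.9 CPM (SD, n = 10), with the log2 fold change at -0.26 ± 0.17 against levodopa alone (adjusted p = 0.414).

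Egr4, a member of the family found mainly in neurons, had levodopa values of 217, 137, 239, 84.4 and 136 CPM. The lowest, median and highest were 63.4, 88.3 and 176 CPM at 7.5 mg/kg, and 105, 131 and 179 CPM at 15 mg/kg. The arms overlapped, with 3 of 10 animals at 7.5 mg/kg and 0 of 10 at 15 mg/kg below the lowest levodopa animal. Egr4 averaged 94.8 ± 32.0 CPM at 7.5 mg/kg, against 163 ± 63.7 CPM with levodopa alone (SD, n = 10 and 5), with the log2 fold change at -0.78 ± 0.20 (adjusted p = 0.141). Animals at 15 mg/kg averaged 136 ± 26.5 CPM (SD, n = 10), with the log2 fold change at -0.26 ± 0.20 (adjusted p = 0.515).

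Egr3, a factor known in muscle spindle formation and in the response of neurons to activity, had levodopa values of 173, 73.1, 167, 120 and 136 CPM. It ran from 100 to 139 CPM at 7.5 mg/kg (median 122) and from 123 to 175 CPM at 15 mg/kg (median 155). Its log2 fold change was -0.16 ± 0.12 at 7.5 mg/kg (adjusted p = 0.624) and 0.18 ± 0.13 at 15 mg/kg (adjusted p = 0.447) against levodopa alone. The low levodopa value, 73.1 CPM, was that of replicate 2, which also had the lowest summed level of spiny projection neuron markers (9556 CPM, against 13378 to 17054 CPM in the other 4 levodopa animals) and the highest of endothelial markers (924 CPM). The part of these markers in its Egr3 level was not tested. Without this animal the log2 fold change of Egr3 was -0.31 at 7.5 mg/kg (adjusted p = 0.425) and 0.028 at 15 mg/kg (adjusted p = 0.948).

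Nr4a1, also called Nur77, is an orphan receptor that striatal neurons express under dopamine control. It had levodopa values of 286, 173, 287, 121 and 222 CPM. Its lowest, median and highest were 71.8, 117 and 240 CPM at 7.5 mg/kg, and 151, 191 and 251 CPM at 15 mg/kg. At the lower dose 6 of 10 animals were below every levodopa animal, and at the higher dose 0 of 10 were. Nr4a1 averaged 123 ± 47.0 CPM at 7.5 mg/kg, against 218 ± 72.0 CPM with levodopa alone (SD, n = 10 and 5), with the log2 fold change at -0.83 ± 0.20 (adjusted p = 0.135). The higher dose averaged 196 ± 36.8 CPM (SD, n = 10), with the log2 fold change at -0.15 ± 0.21 (adjusted p = 0.737).

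Nr4a3, also called Nor1, shares the DNA element of Nr4a1. Its levodopa values were 26.5, 17.9, 24.0, 18.4 and 13.7 CPM. The lowest, median and highest were 11.7, 24.7 and 36.7 CPM at 7.5 mg/kg, and 23.1, 34.0 and 51.2 CPM at 15 mg/kg. In the 15 mg/kg arm 8 of 10 animals were above every levodopa animal and 10 of 10 above the levodopa mean; at 7.5 mg/kg 3 of 10 were above every levodopa animal and 2 of 10 below. Nr4a3 averaged 35.6 ± 9.86 CPM at 15 mg/kg, against 20.1 ± 5.15 CPM with levodopa alone (SD, n = 10 and 5) and the log2 fold change, 0.82 ± 0.22, missed the threshold (adjusted p = 0.0537). The lower dose averaged 23.5 ± 7.29 CPM (SD, n = 10), with the log2 fold change at 0.22 ± 0.22 (adjusted p = 0.703). The value at 15 mg/kg was past the threshold with DESeq2 (log2 fold change 0.82, adjusted p = 0.0114), with limma-voom (0.87, adjusted p = 0.0252) and when the 7.5 mg/kg arm was left out of the fit (0.82, adjusted p = 0.0316). It did not pass with the replicate number as a block (0.74, adjusted p = 0.178) or the cortical score in the design (0.63, adjusted p = 0.344). Nor did it pass with 2 surrogate variables (0.42, adjusted p = 0.472). Leaving out 1 library, it passed in 5 of 25 fits, with values from 0.71 to 0.945 and adjusted p from 0.0288 to 0.172.

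Nr4a2, also called Nurr1, is required for midbrain dopamine neurons and is scarce in the striatum. Its levodopa values were 3.9, 3.8, 2.6, 2.4 and 6.5 CPM. It ran from 1.17 to 7.33 CPM at 7.5 mg/kg (median 3.00) and from 1.62 to 5.39 CPM at 15 mg/kg (median 3.97). These ranges lie across each other: the log2 fold changes were -0.23 ± 0.28 at 7.5 mg/kg (adjusted p = 0.775) and 0.057 ± 0.28 at 15 mg/kg (adjusted p = 0.939).

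Npas4, the calcium-dependent factor known to set inhibitory synapses and Bdnf transcription in neurons, had levodopa values of 22.1, 14.9, 31.0, 7.6 and 17.5 CPM. The lowest, median and highest were 6.38, 20.4 and 29.3 CPM at 7.5 mg/kg, and 2.72, 15.1 and 25.0 CPM at 15 mg/kg. Below every levodopa animal lay 2 of 10 animals at 15 mg/kg and 1 of 10 at 7.5 mg/kg. The log2 fold changes were 0.13 ± 0.35 at 7.5 mg/kg (adjusted p = 0.909) and -0.42 ± 0.35 at 15 mg/kg (adjusted p = 0.538). Its SE was the largest of the 8 in these comparisons.

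**Figure D2:**
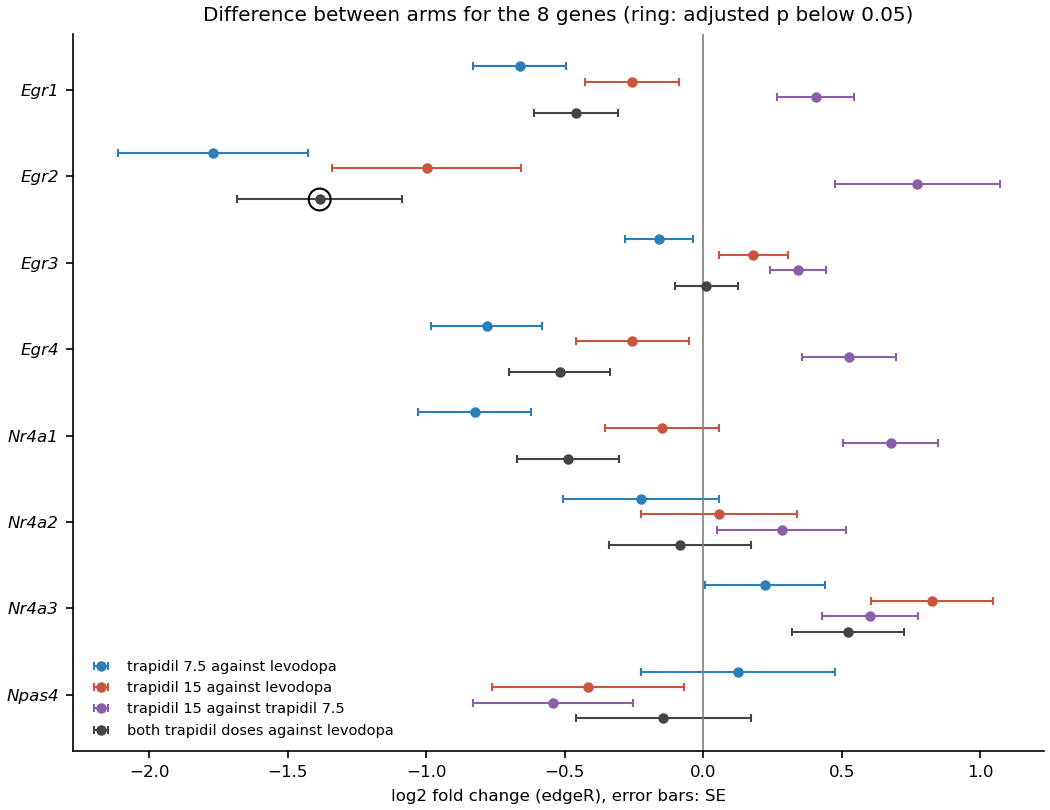
log2 fold change (edgeR) of each gene in 4 comparisons, with SE as error bars; a ring marks an adjusted p below 0.05. The ringed value is that of Egr2 for both trapidil doses against levodopa, -1.38 ± 0.30; Nr4a3 lies right of 0 in all 4 comparisons.

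At 7.5 mg/kg against levodopa alone, 0 of the 8 members passed, beside 0.0283% of all genes in either direction. At an unadjusted p below 0.05, 4 members were lower (Egr1, Egr2, Egr4 and Nr4a1), against 6.64% of all genes in that direction. The exact two-sided permutation test over animals, on log2(CPM + 2), gave p = 0.0193 for Egr1, p = 0.00599 for Egr2, p = 0.0213 for Egr4 and p = 0.0147 for Nr4a1, unadjusted. Again 4 of 8 were lower, where 3.87% of all genes were by that test. These 4 members varied together across animals (below), so they are not 4 separate observations. No member had arms that did not overlap, as 0.0919% of all genes did. The members' median log2 fold change was -0.44, against 0.0037 over all genes tested. The count past the adjusted threshold, 0 of 8, was 1 without levodopa replicate 2, 7.5 mg/kg replicate 6 or 15 mg/kg replicate 10 (Egr2 in each), 3 without 7.5 mg/kg replicate 1 (Egr2, Egr4 and Nr4a1) and 4 without levodopa replicate 4 (Egr1 also). By the permutation test the count was 2 without levodopa replicate 1 or 3.

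At 15 mg/kg against levodopa alone, 0 of 8 passed, beside 1.31% of all genes. At an unadjusted p below 0.05 Egr2 was lower, beside 11.2% of all genes lower, and Nr4a3 was higher, beside 8.26% of all genes higher. By the exact permutation test the same 2 genes fell below 0.05, Egr2 with p = 0.0353 (9.75% of all genes lower) and Nr4a3 with p = 0.004 (9.28% of all genes higher). With 1 member in each direction, the share is near the background. No member had arms that did not overlap, beside 0.707% of all genes. The median was -0.20, against 0.00068 over all genes. The count past the adjusted threshold was 2 (Egr2 and Nr4a3) without levodopa replicate 4 or 7.5 mg/kg replicate 1, and 1 (Nr4a3) without 7.5 mg/kg replicate 3 or 6 or 15 mg/kg replicate 4. By the permutation test Egr2 had a p above 0.05 without levodopa replicate 1, 3 or 5.

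With both doses against levodopa alone, Egr2 was the 1 of 8 members that fell, beside 0.665% of all genes lower and 0.806% in either direction. At an unadjusted p below 0.05, 4 members were lower, the same 4 as at 7.5 mg/kg, and Nr4a3 was higher, beside 10.5% and 7.62% of all genes. Beyond Egr2, the log2 fold changes were -0.46 ± 0.15 for Egr1 (adjusted p = 0.113), -0.52 ± 0.18 for Egr4 (adjusted p = 0.135), -0.49 ± 0.18 for Nr4a1 (adjusted p = 0.167) and 0.52 ± 0.20 for Nr4a3 (adjusted p = 0.175). Those of Egr3, Nr4a2 and Npas4 were 0.010 ± 0.11, -0.085 ± 0.26 and -0.15 ± 0.32. No member had groups that did not overlap, beside 0.0283% of all genes. The count was 0 without levodopa replicate 1, 3 or 5, 3 without 7.5 mg/kg replicate 1 (Egr4 and Nr4a1 also) and 4 without levodopa replicate 4 (Egr1 also). The comparisons with levodopa alone share its 5 animals, so a levodopa animal that is high or low moves all of them.

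The 15 and 7.5 mg/kg arms share no control and hold 10 animals each. Here 0 of 8 members passed, beside 0.0283% of all genes. At an unadjusted p below 0.05, 6 were higher at 15 than at 7.5 mg/kg, beside 1.49% of all genes in that direction. The members were chosen with earlier results of these data known and tended to vary together (below). These are therefore not 6 separate observations. The log2 fold changes were 0.40 ± 0.14 for Egr1, 0.77 ± 0.30 for Egr2, 0.34 ± 0.10 for Egr3, 0.53 ± 0.17 for Egr4, 0.68 ± 0.17 for Nr4a1 and 0.60 ± 0.17 for Nr4a3. The smallest adjusted p was 0.46, that of Nr4a1. By log2(CPM + 2), 10 of 10 animals at 15 mg/kg exceeded the 7.5 mg/kg mean for Egr2, Egr3, Egr4, Nr4a1 and Nr4a3. In CPM, replicate 10 at 15 mg/kg lay below that mean for Egr2 (27.4 against 31.5 CPM). So did replicate 4 for Nr4a3 (23.1 against 23.5 CPM). For Egr3 8 of 10 lay above every animal at 7.5 mg/kg. Nr4a2 was at 0.28 ± 0.23, and Npas4 was the 1 member with the other sign, -0.54 ± 0.29. No arms were without overlap, as in 0.0% of all genes. The members' median was 0.47, against -0.0024 over all genes. Without replicate 1 of the 7.5 mg/kg arm, 1 member was past the threshold between the doses, Nr4a1 (log2 fold change 0.84, adjusted p = 0.0142).

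**Figure D3:**
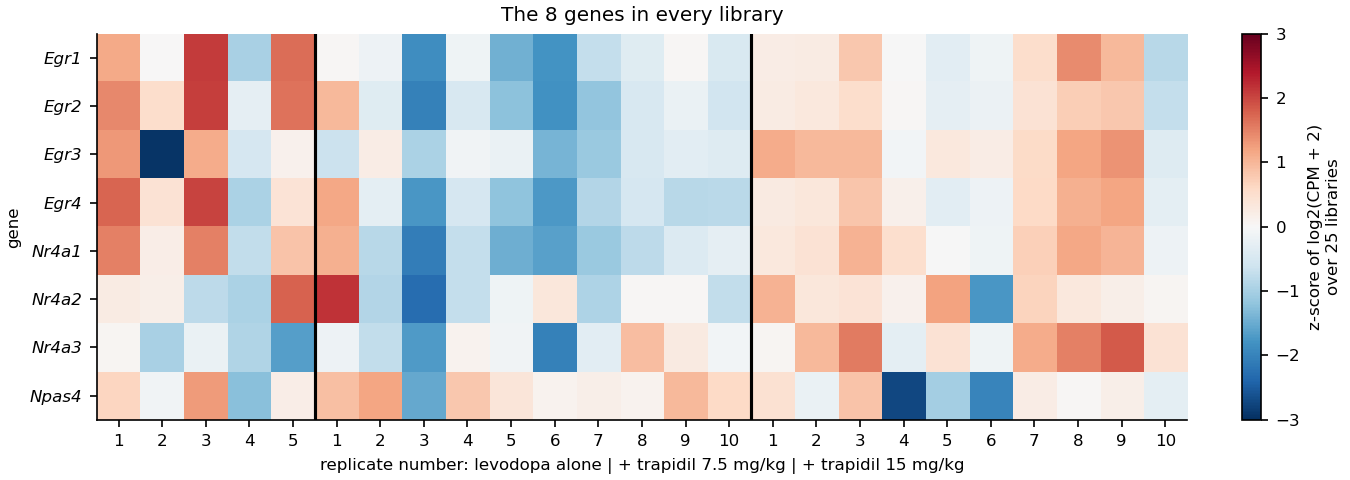
Each gene's log2(CPM + 2) as a z-score over 25 libraries (colour), with animals in columns, by arm and replicate number, and genes in rows. Levodopa replicates 1, 3 and 5 and the 7.5 mg/kg replicate 1 are red for most rows, while 7.5 mg/kg replicate 3 is blue in all 8.

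The heat map of all libraries shows animals that were high or low for several members at once. Levodopa replicate 4 was the lowest of its arm for Egr1, Egr2, Egr4, Nr4a1, Nr4a2 and Npas4, and levodopa replicate 3 the highest for Egr1, Egr2, Egr4, Nr4a1 and Npas4. In the 7.5 mg/kg arm, replicate 3 was the lowest for Egr1, Egr2, Egr4, Nr4a1, Nr4a2 and Npas4, and replicate 1 the highest for Egr2, Egr4, Nr4a1 and Nr4a2. Replicate 1 had the smallest library of all, 10838513 counts, and the highest oligodendrocyte sum of its arm, 16695 CPM; the part of either in its levels was not tested. With levodopa replicate 4 and the 7.5 mg/kg replicate 1 both left out, which was chosen after their values were seen, 4 members were past the threshold at 7.5 mg/kg against levodopa alone. These were Egr1 (log2 fold change -0.84, adjusted p = 0.00761), Egr2 (-2.28, adjusted p = 2.3e-05), Egr4 (-1.09, adjusted p = 0.000267) and Nr4a1 (-1.13, adjusted p = 0.000196). Leaving out a levodopa animal low for these 4 genes and a 7.5 mg/kg animal high for them widens the difference by construction. Those adjusted p-values are therefore no evidence of a difference.

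Across animals within a trapidil arm the members tended to vary together, as the correlation maps show. In all 56 relations were computed, 28 pairs in each of the 2 arms, with permutation tests of 100000 resamples and Benjamini-Hochberg adjustment over the 56. The 5 levodopa animals are too few for a correlation. In the 7.5 mg/kg arm 27 of 28 pairs had a positive Pearson r (median 0.63) and 9 passed, or 8 by Spearman's rho. In the 15 mg/kg arm 28 of 28 were positive (median 0.73) and 15 passed, or 12 by rho. For each pair the 2 animals farthest from the median of its first gene, in the order of the opening list, were then left out. The 8 animals that remained gave 2 pairs past the threshold at 7.5 mg/kg (median r of the 28 pairs 0.58) and 8 at 15 mg/kg (median r 0.74). Egr1 with Nr4a3 at 7.5 mg/kg had r = 0.73 with all 10 animals (permutation, adjusted p = 0.0445) and r = 0.099 without the 2 farthest in Egr1 (permutation, adjusted p = 0.818). Leaving out the animals farthest in a gene narrows its range and leaves 8 animals. That can by itself lower r and the number of pairs that pass. All points share library size and tissue sampling, and genes of 1 animal are not independent of each other.

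Egr4 and Nr4a1 had r = 0.97 at 15 mg/kg (permutation, adjusted p = 0.00056; rho = 0.89, adjusted p = 0.00832), and r = 0.96 with the 2 farthest animals left out. In the 7.5 mg/kg arm they had r = 0.92 (permutation, adjusted p = 0.00433; rho = 0.78, adjusted p = 0.0321), and r = 0.68 with the 2 farthest left out (adjusted p = 0.137). Egr1 and Egr2 had r = 0.97 at 15 mg/kg (permutation p = 1e-05, the smallest that 100000 resamples can give, adjusted 0.00019; rho = 0.99; r = 0.98 without 2 animals) and r = 0.89 at 7.5 mg/kg (the same permutation p and adjusted value; rho = 0.98; r = 0.76 without 2 animals, adjusted p = 0.116). The 2 pairs at 7.5 mg/kg that passed without the farthest animals were Egr2 with Nr4a1 (r = 0.88) and Egr2 with Egr4 (r = 0.87). Egr1, Egr2, Egr4 and Nr4a1 thus formed the group that passed in every pair in both arms with all animals in. Nr4a2 passed with no other member in either arm. Egr3 passed with Egr1, Egr2, Egr4 and Nr4a1 at 15 mg/kg and with none at 7.5 mg/kg; the difference between the arms was not tested.

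**Figure D4:**
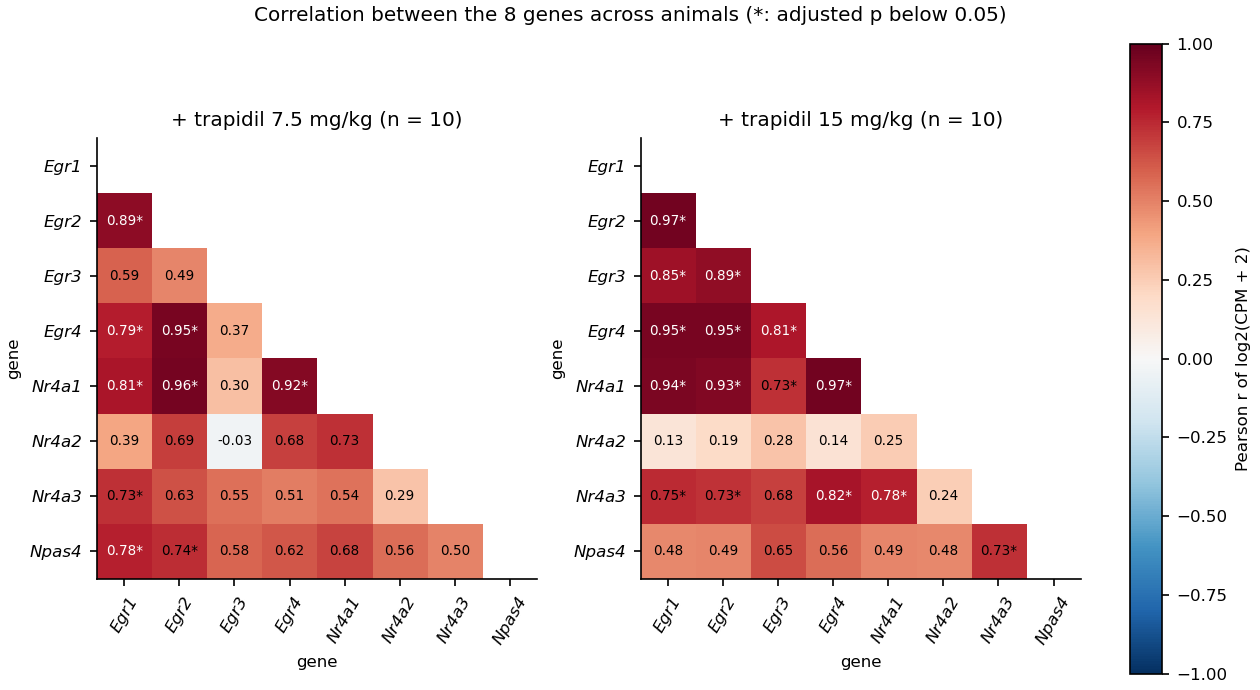
Pearson r of log2(CPM + 2) between each pair of the 8 genes across 10 animals, in the 7.5 mg/kg arm (left) and the 15 mg/kg arm (right); asterisks mark a permutation p, adjusted over 56 relations, below 0.05. The cells among Egr1, Egr2, Egr4 and Nr4a1 are at 0.79 or above in both maps, and the row of Nr4a2 has no asterisk.

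The counts of a member were also set against those of Egr1 or Nr4a1 in the same library, a ratio that needs no scaling between libraries. These ratios were chosen after the values above had been seen; 18 comparisons were made by two-sided permutation tests, exact against levodopa alone, and adjusted over the 18. The ratio depends on both transcripts' lengths, so its size is not a comparison of their levels. Nr4a3 counts were 20.02 ± 6.14% of Nr4a1 counts at 7.5 mg/kg, against 9.86 ± 3.35% with levodopa alone (SD, n = 10 and 5; log2 difference 1.02, exact permutation p = 0.004, adjusted 0.0168). They were 18.01 ± 2.92% at 15 mg/kg (SD, n = 10; log2 difference 0.91, exact permutation p = 0.002, adjusted 0.0168). At each dose 8 of 10 animals were above every levodopa animal, and between 15 and 7.5 mg/kg the log2 difference was -0.11 (permutation p = 0.531, adjusted 0.597). The ratio was thus higher at both doses, while the level of Nr4a1 was lowest at 7.5 mg/kg and that of Nr4a3 highest at 15 mg/kg.

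Egr2 counts were 11.02 ± 5.89% of Egr1 counts at 7.5 mg/kg and 14.6 ± 2.10% at 15 mg/kg, against 23.4 ± 5.95% with levodopa alone (SD, n = 10, 10 and 5). The log2 difference from levodopa alone was -1.18 at 7.5 mg/kg (exact permutation p = 0.00466, adjusted 0.0168, 9 of 10 animals below every levodopa animal) and -0.65 at 15 mg/kg (exact permutation p = 0.004, adjusted 0.0168, 5 of 10 animals). Between 15 and 7.5 mg/kg it was 0.53 (permutation p = 0.0174, adjusted 0.0447). Egr3 counts were 45.8 ± 8.49% of Egr1 counts at 7.5 mg/kg, against 33.0 ± 11.1% with levodopa alone (exact permutation p = 0.0213, adjusted 0.0479), and 43.3 ± 4.72% at 15 mg/kg (exact permutation p = 0.026, adjusted 0.052). The unadjusted p of both Egr3 values lay above 0.05, at up to 0.0639 and 0.0779 by the exact permutation test, without levodopa replicate 2, 3 or 5. For Egr4 against Egr1, and for Nr4a2 against Nr4a1, no comparison passed (adjusted p from 0.137 to 0.754, permutation tests).

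The ratio of Npas4 to Egr1 differed between the doses. Npas4 counts were 3.89 ± 1.75% of Egr1 counts at 15 mg/kg, against 7.46 ± 1.80% at 7.5 mg/kg (SD, n = 10 each; log2 difference -1.09, permutation p = 0.00084, adjusted 0.0151). At 7.5 mg/kg 9 of 10 animals were above every levodopa animal, whose mean was 4.25 ± 0.952% (SD, n = 5; log2 difference 0.79, exact permutation p = 0.00666, adjusted 0.02). At 15 mg/kg the log2 difference from levodopa alone was -0.30 (exact permutation p = 0.578, adjusted 0.612). The 7.5 mg/kg animal outside that pattern was replicate 3, at 3.42%.

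**Figure D5:**
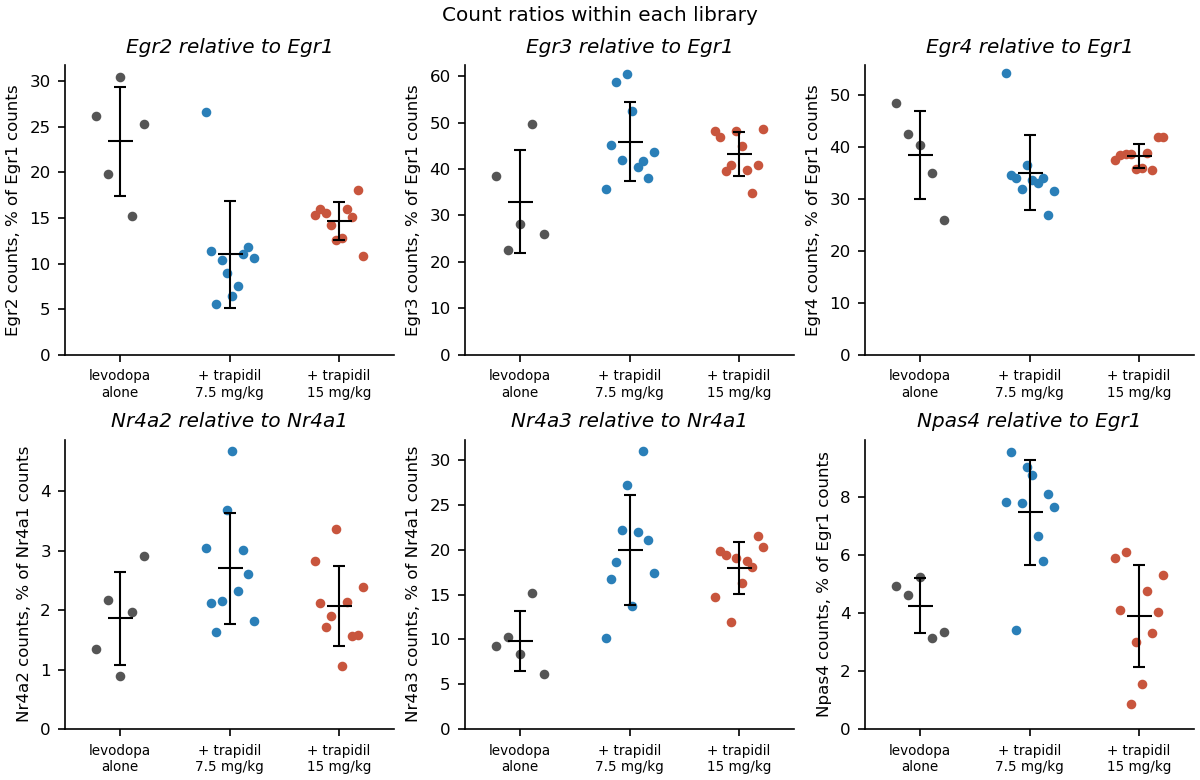
Counts of 1 gene as a percentage of another gene's counts in the same library, by arm; points are animals, the long bar is the mean and the whiskers are SD (n = 5, 10 and 10). For Nr4a3 relative to Nr4a1, 8 of 10 animals of each trapidil arm lie above the highest levodopa animal (15.2%); for Egr2 relative to Egr1, 9 of 10 at 7.5 mg/kg lie below the lowest (15.2%).

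The genes whose pattern was most like each member's were found over 25 libraries, by Pearson r of log2(CPM + 2) centred on the arm means, among 13067 genes of at least 1 CPM, with the 8 members themselves left out. For Egr4 the nearest were Junb (r = 0.95), Fos (0.88) and Slc25a25 (0.87). For Nr4a1 they were Junb (0.96), Fos (0.91) and Arc (0.89), and for Egr2 again Junb (0.92), Fos (0.89) and Arc (0.86). Junb and Fos encode AP-1 subunits and Arc a synaptic protein, all of the rapid response class. Egr1 had Noct (0.84), Junb (0.81) and Rgs2 (0.76) nearest. Nr4a3 was nearest to Fosb (0.83), Arl5b (0.81) and Ptgs2 (0.80), of which Fosb and Ptgs2 are in the list of rapid response genes below. Fosb encodes another AP-1 subunit and Ptgs2 an inducible cyclooxygenase. Egr3 had Cx3cl1 (0.90), St8sia3 (0.90) and Sybu (0.89), Npas4 had AABR07052897.3 (0.83), Mmd (0.83) and Zdhhc2 (0.82), and Nr4a2 had Clcn6 (0.78), Golga7b (0.74) and Stac2 (0.73). Spearman's rho of these pairs ran from 0.46 (Nr4a2 with Stac2) to 0.95 (Nr4a1 with Junb). Without the 2 libraries farthest in the member, r ran from 0.59 to 0.93 for the same 2 pairs. These correlations are descriptions over libraries that share tissue sampling and depth.

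Of 41 other rapid response genes tested, from a list of 42, 2 fell at 7.5 mg/kg against levodopa alone. They were the antiproliferative Btg2 and the MAP kinase phosphatase Dusp6, beside 0.0283% of all genes past the threshold in either direction. The median log2 fold change of the 41 was -0.40 and 33 of 41 were negative, beside 48.9% of all genes. At 15 mg/kg against levodopa alone 6 fell and 1 rose, with a median of -0.21, beside 1.31% of all genes in either direction. Those with the smallest p were Jun (49.5 ± 9.47 CPM at 15 mg/kg against 123 ± 57.4 CPM with levodopa alone; SD, n = 10 and 5; log2 fold change -1.32 ± 0.22, adjusted p = 0.00751), Btg2 (-1.39 ± 0.25, adjusted p = 0.0106), Dusp6 (-0.81 ± 0.17, adjusted p = 0.0217) and Per1, the clock gene, which rose (159 ± 18 CPM at 15 mg/kg against 118 ± 19.2 CPM with levodopa alone; SD, n = 10 and 5; 0.44 ± 0.09, adjusted p = 0.0217). Per1 was also the 1 of 41 that rose at 15 against 7.5 mg/kg, by 0.44 ± 0.07 (adjusted p = 0.00512), beside 0.0283% of all genes in either direction. With both doses 9 fell and 0 rose, beside 0.806% of all genes in either direction. Leaving out single libraries moved these counts, to 0 to 14 at 7.5 mg/kg, 0 to 16 at 15 mg/kg and 4 to 19 with both doses, the highest each time without 7.5 mg/kg replicate 1. At 7.5 mg/kg against levodopa alone, 0 of the 41 passed in 19 of these 25 fits, so neither Btg2 nor Dusp6 did there. The 0 at 15 mg/kg was without levodopa replicate 3, and with levodopa replicate 4 left out the counts were 12, 14 and 15. Arc, the synaptic gene, averaged 198 CPM at 15 mg/kg, against 505 CPM with levodopa alone, and fell (log2 fold change -1.35 ± 0.33, adjusted p = 0.0414). Fosb, like Nr4a3, had its highest mean at 15 mg/kg, 62.0 ± 16.1 CPM, against 40.6 ± 16.0 CPM with levodopa alone (SD, n = 10 and 5; log2 fold change 0.61 ± 0.21, adjusted p = 0.106).

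The 29 tested genes that act upstream were serum response factor and its Elk partners, CREB and its coactivators, MAP kinases and related genes. Of these, 1 fell and 0 rose at 15 mg/kg against levodopa alone, beside 1.31% of all genes in either direction. That gene was Elk3, an Elk family repressor also prominent in blood vessels, with 10.9 ± 0.572 CPM at 15 mg/kg, against 14.2 ± 3.26 CPM with levodopa alone (SD, n = 10 and 5; log2 fold change -0.39 ± 0.10, adjusted p = 0.0457). It also fell with both doses (-0.36 ± 0.09, adjusted p = 0.0486), where 0.806% of all genes passed. At 7.5 mg/kg 0 of 29 passed, with the smallest p that of Elk3 (-0.33 ± 0.10, adjusted p = 0.2), and between 15 and 7.5 mg/kg 0 of 29 passed (Crtc2, -0.12 ± 0.07, adjusted p = 0.999). Mkl2 and Ep300 were not analysed here. Leaving out single libraries, 0 passed in 15 of 25 fits at 15 mg/kg and in 20 of 25 with both doses, and 5 passed at 15 mg/kg without levodopa replicate 4. The relation of Elk3 to the endothelial sums above was not tested. Of 7 partners and corepressors of the members, 0 passed in any of the 4 comparisons; the smallest p were those of Nab2 at 7.5 mg/kg (-0.18 ± 0.09, adjusted p = 0.425) and Nab1 at 15 mg/kg (-0.18 ± 0.08, adjusted p = 0.2), both corepressors of Egr proteins.

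Of 7 genes known as Egr targets, 0 passed at 7.5 mg/kg, 2 fell at 15 mg/kg against levodopa alone, and 1 fell with both doses. Over all genes 0.0283%, 1.31% and 0.806% passed in that order, in either direction. The 2 were Arc, above, and Ngfr, the low-affinity neurotrophin receptor (-1.95 ± 0.49, adjusted p = 0.0437), and the 1 was Arc (-1.35 ± 0.29, adjusted p = 0.0301). At 15 mg/kg 0 of the 7 passed in 12 of 25 fits that left out 1 library, levodopa replicates 2, 3 and 5 among them, and with both doses 0 passed without levodopa replicate 1, 2 or 3. Of 3 Npas4 targets, Plk2 and Nptx2 were tested and neither passed in any comparison; Bdnf was below the count filter, with 0 counts in 9 of 25 libraries. Of 5 targets of Nr4a2 known from midbrain dopamine neurons, 4 were tested and 0 passed; Slc6a3, the dopamine transporter, had 0 counts in 21 of 25 libraries. The smallest p among them at 15 mg/kg against levodopa alone was that of Ret (-1.32 ± 0.38, adjusted p = 0.0647), and at 7.5 mg/kg that of Ddc (-0.36 ± 0.12, adjusted p = 0.282).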

How the data were processed

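Polyadenylated RNA of the ipsilateral striatum of 25 rats was sequenced, and the authors deposited 1 table of raw counts per gene. The submitters' processing notes name FastQC, STAR, HTSeq and the Rnor_6.0 build. Tool versions, the annotation and the strand setting are not given in the sources used here, so genes that overlap or lie antisense may share reads. Arms were read from the labels, and libraries were taken as separate animals, which the labels do not state library by library. No 2 libraries of an arm agreed within sampling noise (lowest chi-square per degree of freedom 12, 4.92 and 4.83 in the levodopa, 7.5 and 15 mg/kg arms). No batch is named in the labels.

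Genes were kept by filterByExpr and fitted with edgeR 4.0.16 (R 4.3.3) with TMM scaling, glmQLFit and glmQLFTest, on all 25 libraries in a 1-way design by arm (common BCV, the biological coefficient of variation, 0.139). The adjustment was Benjamini-Hochberg over 14142 genes. DESeq2 1.42.0, limma 3.58.1 (voom with quality weights), sva 3.50.0, other scalings and filters, covariates and leaving out libraries were alternatives. Permutation tests of the members between arms used scipy 1.17.1, on log2(CPM + 2) for levels and on log2 ratios of raw counts for ratios. Those of correlations and of all genes used numpy 2.4.6, on log2(CPM + 2). Only the edgeR fit was tested on simulated counts, for 15 mg/kg against levodopa alone. Same-numbered libraries correlated above 0.1 in 3 of 5, 3 of 10 and 2 of 5 pairs (15 mg/kg with levodopa, 15 with 7.5 mg/kg, 7.5 mg/kg with levodopa). Libraries of unlike number were not set beside them, so whether replicate numbers pair the animals was not tested.

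The 8 members and all gene lists were chosen with earlier results of these data known. The text names all members, per list and comparison the 4 called genes of smallest p at most, or the gene of smallest p where none was called, and the 3 genes most like each member; Fosb in the list of rapid response genes, and the markers, were named after their values were seen. Promoters are RefSeq's on GRCr8, and 6 of 8 members matched by symbol. Single oligodendrocyte markers are not reported here.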

Additional observations from a re-analysis of the deposited data

Results flagged for a closer look

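Of the 24 groups of member and arm, the 16 with 10 animals and the 8 levodopa groups with 5 were checked for a single animal far from the others, by the gap to its neighbour relative to the whole range. Chance alone gives such an animal in about 1 of 20 groups, and 5 were found. In the 7.5 mg/kg arm replicate 1 was the highest of 10 for Egr2 (86.55 CPM, the next 38.74 CPM), for Egr4 (176.5 CPM, the next 106.2 CPM), for Nr4a1 (240.4 CPM, the next 144.5 CPM) and for Nr4a2 (7.335 CPM, the next 3.988 CPM). These 4 are 1 animal and so count as 1 observation. In the 15 mg/kg arm replicate 6 was the lowest of 10 for Nr4a2, at 1.623 CPM, with the next at 3.609 CPM. No levodopa group was among the 5.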

How the results depend on the processing

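The number of members past the threshold was 0, 0, 0 and 1 (7.5 mg/kg, 15 mg/kg, 15 against 7.5 mg/kg, both doses). At 7.5 mg/kg it became 1 (Egr2) with upper quartile scaling, with no low-count filter, with 2 surrogate variables and at a threshold of 0.10, 2 with DESeq2, 3 without levodopa replicate 2 and 7.5 mg/kg replicate 1 (the first pair), and 4 with limma-voom or without levodopa replicate 4 and 7.5 mg/kg replicate 1 (the second pair, chosen after seeing the data). At 15 mg/kg it became 1 (Nr4a3) with DESeq2, with only the arms compared and at 0.10, and 2 with limma-voom or the second pair left out. With the cortical score or 2 surrogate variables in the design it stayed at 0 there, with Nr4a3 at 0.63 and 0.42 against 0.82. Between the doses it became 1 with limma-voom or the first pair left out, and 2 with surrogate variables or the second pair left out. For both doses it became 4 with limma-voom or the second pair left out, and 0 with the cortical score, 4 region scores, surrogate variables or the first principal component in the design, where Egr2 was -1.33, -0.92, -1.34 and -1.19 against -1.38. Leaving out single libraries gave 0 to 4, 0 to 2, 0 to 1 and 0 to 4 members, and 2 to 5 and 1 to 2 by the permutation test. The cause of these changes was not tested.

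With the replicate number as a block, 0 members passed for both doses (Egr2 -1.30, adjusted p = 0.182). Whether that number stands for a shared batch or order was not tested.

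Signs turned only for values that did not pass. Egr3 for both doses was -0.091 with limma-voom, -0.13 with the cortical score, -0.077 with region scores, -0.091 with the principal component, and -0.14 and -0.022 without the first and second pair. Nr4a2 for both doses was 0.019 with the block, 0.27 with the cortical score, 0.12 with surrogate variables, 0.43 with region scores and 0.19 with the component; at 7.5 mg/kg it was 0.088 (cortical) and 0.22 (region), and at 15 mg/kg -0.073 without the second pair. Nr4a3 at 7.5 mg/kg was -0.17 (surrogate), -0.044 (region) and -0.013 (component). Npas4 at 7.5 mg/kg was -0.092 (surrogate) and -0.11 (second pair). At 15 mg/kg Egr4 was 0.031 (region), and Nr4a1 0.094 (region) and 0.020 (component). Leaving out single libraries, edgeR's log2 fold changes ran from -0.41 to 0.058 for Nr4a2 and -0.076 to 0.39 for Npas4 at 7.5 mg/kg, and from -0.075 to 0.34 for Nr4a2 at 15 mg/kg. For both doses they ran from -0.14 to 0.12 for Egr3, -0.22 to 0.20 for Nr4a2 and -0.35 to 0.12 for Npas4. On the permutation scale they ran from -0.30 to 0.0028 for Egr3, -0.23 to 0.0070 for Nr4a2 and -0.095 to 0.35 for Npas4 at 7.5 mg/kg, and from -0.29 to 0.016 for Nr4a1 and -0.032 to 0.21 for Nr4a2 at 15 mg/kg. Among the ratios at 15 mg/kg, Egr4 to Egr1 ran from -0.11 to 0.12 and Nr4a2 to Nr4a1 from -0.037 to 0.39.

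Precision is limited by 5 levodopa animals. Pairs of members past the threshold numbered 2 rather than 9 at 7.5 mg/kg, and 8 rather than 15 at 15 mg/kg, without the 2 animals farthest in each pair's first gene. The narrower range and fewer animals can by themselves lower these counts.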
